A study of Homo sapiens with 18 samples.

Results

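The step from 10 to 50 µg/ml oxidized low-density lipoprotein (oxLDL) was examined in HMC3, an immortalized human cell line labelled as microglial, with wild type genotype. Cells had been given oxLDL for 24 h, and messenger RNA was sequenced from 3 libraries at 50 µg/ml and 3 at 10 µg/ml. The series also holds 3 libraries each at 0, 1, 2.5 and 100 µg/ml, which enter the fit and a few comparisons below, for 18 libraries in all. Apart from the oxLDL dose, the labels describe the groups alike, so every group is the same single line in the same medium, and the labels name no carrier treatment for the 0 µg/ml cells. Of 13992 genes listed, the 11840 with at least 0.5 FPKM (reads scaled by transcript length and by the total of the library) in at least 3 of these 6 libraries were compared, and the other 2152 were not. At that limit the third-highest of the 6 values was 0.5 FPKM for KCNJ14 and 0.5001 FPKM for RGS9, just inside, and 0.4996 FPKM for VAC14-AS1, just outside.

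OxLDL is a lipoprotein particle that cells take up through scavenger receptors, and it delivers cholesterol, fatty acids and oxidized lipids to the lysosome. Electrophilic lipids release the transcription factor NRF2 from its inhibitor KEAP1, and NRF2, paired with a small MAF protein, then drives genes for glutathione synthesis, thioredoxin, quinone reduction and NADPH supply. Fatty acids are ligands of the PPAR nuclear receptors, oxysterols are ligands of LXR, and cholesterol in the endoplasmic reticulum holds back SREBP2, the factor that drives cholesterol synthesis and uptake.

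Recovered depths of the 6 libraries were 18615369 to 32834978 reads, within the 13902719 to 37338597 reads of all 18. Whether the 3 libraries of each dose stem from separate cultures is not given by the labels, so p-values here reflect the variation between libraries, and that variation may be technical. Of 34 microglia and macrophage markers, 7 are among the genes listed and 6 were tested. CD68, CD14, MERTK, CD74 and RUNX1 were among those measured, whereas the defining microglial genes AIF1, CX3CR1, P2RY12, TMEM119, CSF1R, SPI1, TREM2 and PTPRC are not among the listed genes. The listed microglial markers summed to 95.3 to 103 FPKM at 50 µg/ml and to 85.6 to 96.8 FPKM at 10 µg/ml. Over all genes tested, 10 µg/ml replicate 3 was about as far from the others of its dose (root mean square difference 0.147 on the log2 scale) as replicate 1 was (0.139), and the range over all 18 libraries was 0.112 to 0.165. On the genes called in the step it lay toward 50 µg/ml, and results that rest on it are given with and without it.

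In the comparison of 50 with 10 µg/ml, 320 genes were called at an adjusted p under 0.05 (limma, Benjamini-Hochberg), which is 2.7% of the genes tested. Of these, 170 rose (1.44% of genes tested) and 150 fell (1.27%), and 2010 genes had an unadjusted p under 0.05. Most changes were small: the median absolute log2 fold change of the called genes was 0.28, 129 genes moved by less than 0.25, and 42 moved by at least 0.5. ANGPTL4, HMOX1 and SLC7A11 were the 3 called genes that moved by at least 1 on the log2 scale, all of them upward. The 2 doses did not overlap in 318 of the called genes. Over all genes tested, the 50 µg/ml libraries lay wholly above those at 10 µg/ml in 9.59% and wholly below them in 11.7%. Fold changes are on the scale of log2(FPKM + 0.5), so the change of weakly expressed genes is understated.

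**Figure D1:**
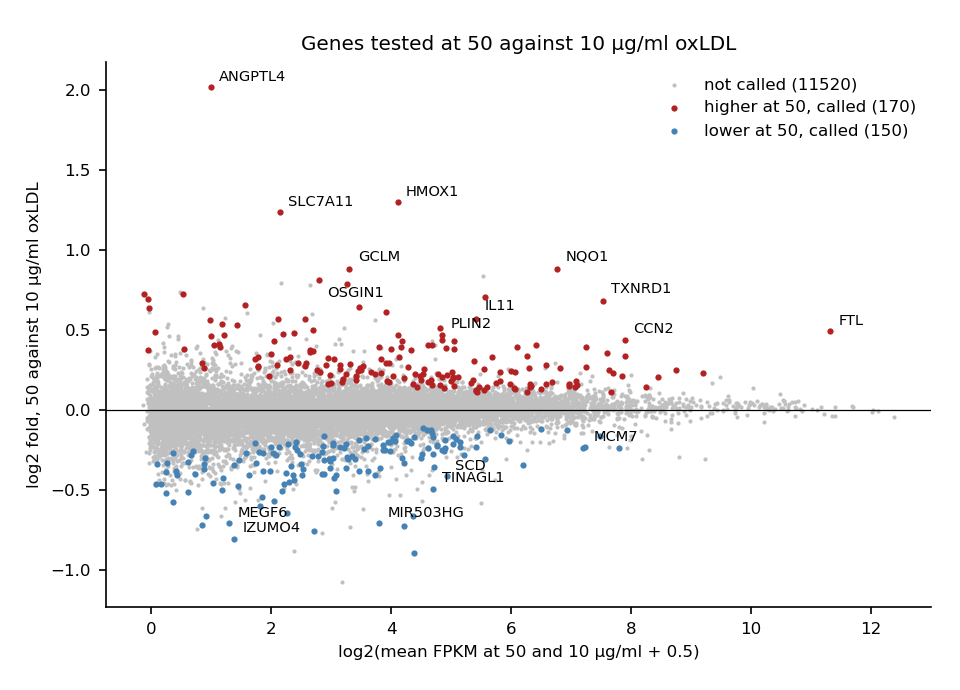
Log2 fold change at 50 against 10 µg/ml oxLDL (vertical axis) by mean level (log2 of mean FPKM + 0.5, horizontal axis) for the 11840 genes tested, with the 170 called rises in red and the 150 called falls in blue. The 3 called genes beyond a log2 fold change of 1 are all rises, and the called falls reach no lower than −0.90.

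Among the lists, genes of oxidant defence held the most rises. Of 33 tested genes on the list of NRF2 targets and glutathione enzymes, 22 rose (66.7%) and 0 fell, with a median log2 fold change of 0.34 against −0.01 over all genes tested. Among all genes tested, 1.44% rose and 1.27% fell. HMOX1, the heme oxygenase that opens heme and frees its iron, measured 23.0, 23.0 and 26.2 FPKM at 50 µg/ml, against 10.3, 8.77 and 9.33 FPKM at 10 µg/ml. Every 50 µg/ml library was above every 10 µg/ml library by a wide margin, and the log2 fold change was 1.30 ± 0.07 (SE; limma, adjusted p = 4.84e-09). HMOX1 lies on chromosome 22 at 35381096 to 35394207 (GRCh38.p14). SLC7A11, the cystine carrier that supplies glutathione synthesis, measured 5.38, 5.64 and 6.15 FPKM at 50 µg/ml, against 2.05, 2.14 and 2.22 FPKM at 10 µg/ml, with a log2 fold change of 1.24 ± 0.06 (SE; limma, adjusted p = 4.28e-09). The libraries of each dose were close together, and the doses were 2.68-fold apart in their means. GCLM, the modifier subunit of the enzyme that makes γ-glutamylcysteine, had 11.7, 12.1 and 13.1 FPKM at 50 µg/ml, against 5.97, 6.34 and 7.09 FPKM at 10 µg/ml. Its log2 fold change was 0.88 ± 0.06 (SE; limma, adjusted p = 1.66e-07), and here the highest library at 10 µg/ml was replicate 3.

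NQO1, a quinone reductase, changed by as much as GCLM at a higher level. It measured 147.2, 141.2 and 132.5 FPKM at 50 µg/ml, against 77.9, 74.3 and 75.5 FPKM at 10 µg/ml, a log2 fold change of 0.88 ± 0.04 (SE; limma, adjusted p = 4.28e-09). TXNRD1, the cytosolic thioredoxin reductase, measured 228.8, 224.3 and 227.2 FPKM at 50 µg/ml and 140.6, 140.3 and 143.6 FPKM at 10 µg/ml. The spread within each dose was a few FPKM and the doses were 1.6-fold apart (log2 fold change 0.68 ± 0.04; SE; limma, adjusted p = 1.99e-08). OSGIN1, an oxidant-responsive growth inhibitor, averaged 8.35 ± 0.39 FPKM at 50 µg/ml and 4.57 ± 0.66 FPKM at 10 µg/ml (SD, n = 3 each), a log2 fold change of 0.81 that passed the limma test. Among the enzymes of the pentose phosphate pathway, TALDO1 averaged 266.8 ± 5.0 FPKM at 50 µg/ml and 210.9 ± 2.7 FPKM at 10 µg/ml, and TKT averaged 213.9 ± 8.0 FPKM at 50 µg/ml and 179.4 ± 6.6 FPKM at 10 µg/ml (SD, n = 3 each), and both rose. ME1, the cytosolic malic enzyme, rose by 0.53 on the log2 scale, with 2.71, 2.71 and 2.65 FPKM at 50 µg/ml against 1.52, 1.75 and 1.85 FPKM at 10 µg/ml. Other rises on the list were glutathione reductase GSR, peroxiredoxin PRDX1, sulfiredoxin SRXN1, thioredoxin TXN, the epoxide hydrolase EPHX1, the carbonyl reductase CBR1, the UDP-glucose dehydrogenase UGDH, PIR, TRIM16, TRIM16L, FTL and MAFG, a small MAF partner of NRF2. TRIM16 and TRIM16L are near-identical copies, so their values (log2 fold changes 0.64 and 0.79) may share reads and are uncertain. MAFF, a second small MAF gene named after its values were seen, averaged 20.4 ± 0.99 FPKM at 50 µg/ml and 15.0 ± 1.0 FPKM at 10 µg/ml (SD, n = 3 each) and also rose (log2 fold change 0.43; limma, adjusted p = 0.00183). Over all alternatives run, 17 to 23 members of the list rose, and 21 did so without 10 µg/ml replicate 3. When each of the 6 libraries was left out in turn, 17 of the 22 were called every time, and TXN, PRDX1, MAFG, CBR1 and PIR lost the call in at least 3 of the 6 fits (limma, adjusted p up to 0.185, 0.0794, 0.147, 0.184 and 0.116).

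**Figure D2:**
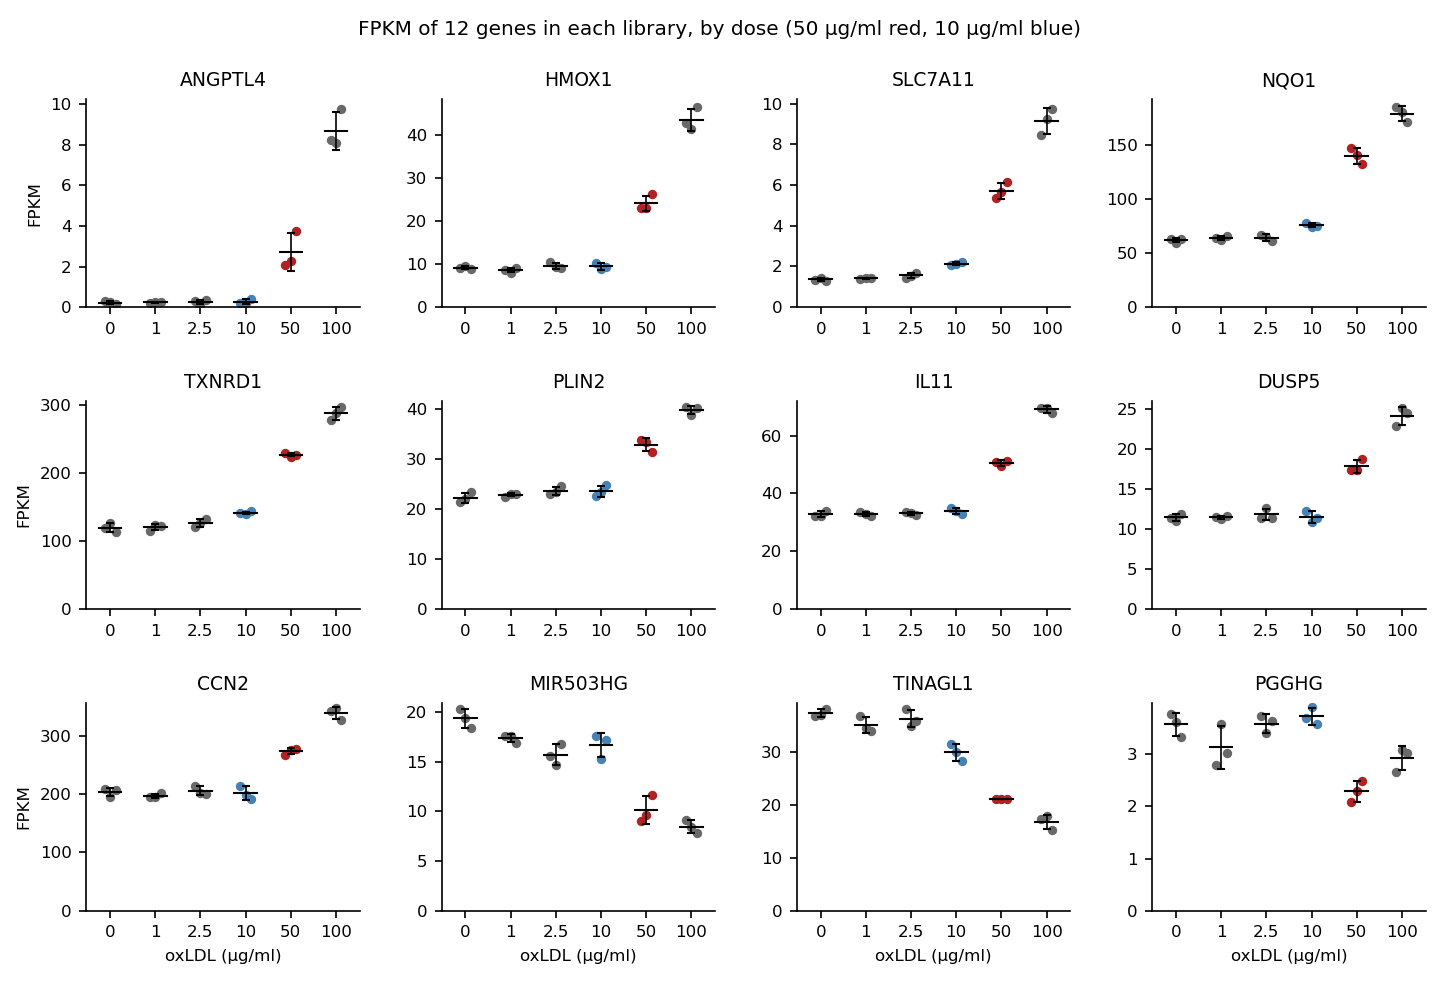
FPKM of 12 genes in each of the 18 libraries by oxLDL dose (µg/ml); points are libraries, horizontal lines means, bars SD (n = 3), with 50 µg/ml in red and 10 µg/ml in blue. HMOX1 and ANGPTL4 at 10 µg/ml sit among the lower doses and leave them at 50 µg/ml, whereas MIR503HG, TINAGL1 and PGGHG drop at 50 µg/ml.

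The promoters of 3 NRF2 targets that rose are shown because they differ in whether the core of the antioxidant response element, TGACNNNGC, can be read near the start site. Sequences are from RefSeq (GRCh38.p14), in the direction of the gene, from 250 bases before the annotated start to 20 bases after it. Capitals mark the motif on either strand, and the reverse complement reads GCNNNGTCA. The TXNRD1 window is chr12:104215529-104215798 on the plus strand, with 2 matches that begin at −99 and −8. The GCLM window is chr1:93909411-93909680 on the minus strand, with 1 match that begins at −34. The NQO1 window is chr16:69726541-69726810 on the minus strand, with 0 matches. UGDH, an NRF2 target picked together with these and not printed, also had 0 matches.
TXNRD1: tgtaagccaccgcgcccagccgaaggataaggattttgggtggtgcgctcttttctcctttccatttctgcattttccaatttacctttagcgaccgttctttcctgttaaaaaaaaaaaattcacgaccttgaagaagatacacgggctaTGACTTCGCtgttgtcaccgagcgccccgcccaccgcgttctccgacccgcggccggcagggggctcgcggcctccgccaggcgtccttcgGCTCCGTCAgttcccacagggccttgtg
GCLM: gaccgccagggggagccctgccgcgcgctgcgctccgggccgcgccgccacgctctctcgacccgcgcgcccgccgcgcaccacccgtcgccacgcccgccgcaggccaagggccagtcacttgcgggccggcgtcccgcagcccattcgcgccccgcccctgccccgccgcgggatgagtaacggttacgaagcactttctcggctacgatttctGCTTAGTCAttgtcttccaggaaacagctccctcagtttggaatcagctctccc
NQO1: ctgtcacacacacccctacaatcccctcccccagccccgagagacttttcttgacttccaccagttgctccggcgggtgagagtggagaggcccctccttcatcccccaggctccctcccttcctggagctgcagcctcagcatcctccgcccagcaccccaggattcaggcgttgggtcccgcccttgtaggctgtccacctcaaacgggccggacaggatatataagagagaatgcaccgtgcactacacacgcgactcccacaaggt

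Over windows that reach 50 bases past the start, TGACNNNGC was present in 44 of 133 rises that had a window (33.1%), in 22 of 112 falls (19.6%) and in 1432 of 9321 tested genes (15.4%). It was present in 15.2% of the windows of all listed genes. Among the 22 NRF2 targets that rose, 16 had a window and 5 of these held the motif, namely GCLM, TXNRD1, ME1, CBR1 and PIR. One form of it, TGACTCAGC, contains TGACTCA, the site of the AP-1 factors, so the 2 motifs overlap. That form was in 9 of the rises with a window (6.77%) and in 0.538% of all windows. The sterol element TCACNCCAC was searched in the same way. It was present in 0 of 112 falls with a window, in 1 of 21 tested genes of the cholesterol list and in 1.18% of all windows. INSIG1 and HMGCS1, whose promoters are not printed, had 0 matches to it. These are matches of letters, not measured binding sites.

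Genes of fatty acid handling also rose, but few of them. Of 25 tested PPAR targets and fatty acid oxidation genes, 5 rose (20%) and 0 fell, and the list's median log2 fold change was 0.04. Over all genes tested, 1.44% rose and 1.27% fell, and the median was −0.01. ANGPTL4, a secreted inhibitor of lipoprotein lipase on chromosome 19 at 8364155 to 8374370, had 2.08, 2.25 and 3.77 FPKM at 50 µg/ml, against 0.199, 0.223 and 0.4 FPKM at 10 µg/ml. Replicate 3 was the highest library at both doses, and the lowest library at 50 µg/ml was above the highest at 10 µg/ml. The means were 9.87-fold apart and the log2 fold change was 2.02 ± 0.16 (SE; limma, adjusted p = 1.18e-06), on as few as 8 reads in a library, and ANGPTL4 passed the filter through the 50 µg/ml libraries alone. PLIN2, a coat protein of lipid droplets, measured 33.8, 33.5 and 31.5 FPKM at 50 µg/ml, against 22.6, 23.4 and 24.8 FPKM at 10 µg/ml (log2 fold change 0.47 ± 0.04; SE; limma, adjusted p = 3.55e-06). CPT1A, which passes long-chain fatty acids to the mitochondrion, measured 4.64, 4.99 and 4.88 FPKM at 50 µg/ml, against 3.19, 3.37 and 3.44 FPKM at 10 µg/ml (log2 fold change 0.48 ± 0.05; SE; limma, adjusted p = 4.28e-05). All 3 genes kept their call in every alternative run. ETFA, an electron carrier of fatty acid oxidation, and ACAA2, the mitochondrial thiolase, moved by 0.13 and 0.23 on the log2 scale, and both lost their call in 11 of the 20 alternatives, with adjusted p up to 0.196 and 0.14 (limma). PLIN2 was also the 1 gene called among 17 tested genes of lipid droplets and lipolysis.

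A few genes of sterol and fatty acid synthesis were called, most of them as falls. Of 26 tested genes of cholesterol synthesis and uptake, 2 fell (7.69%), 0 rose, and 21 had a negative fold change, with a median of −0.09. Of all 11840 genes tested, 1.27% fell, 1.44% rose, 6458 had a negative fold change and the median was −0.01. INSIG1, the sterol-regulated retention protein of the SREBP system, measured 10.3, 10.6 and 9.38 FPKM at 50 µg/ml, against 14.9, 14.4 and 10.9 FPKM at 10 µg/ml (log2 fold change −0.38 ± 0.10; SE; limma, adjusted p = 0.0401). HMGCS1, the cytosolic HMG-CoA synthase, measured 6.56, 6.68 and 6.44 FPKM at 50 µg/ml, against 9.27, 8.4 and 7.31 FPKM at 10 µg/ml (log2 fold change −0.32 ± 0.08; SE; limma, adjusted p = 0.0431). In both genes 10 µg/ml replicate 3 lay nearest to the 50 µg/ml libraries, and both calls ended in each fit that left out a library other than that one (limma, adjusted p up to 0.195 and 0.209, both without 10 µg/ml replicate 1). SCD, the stearoyl-CoA desaturase, measured 25.5, 27.4 and 23.7 FPKM at 50 µg/ml, against 38.1, 36.2 and 28.9 FPKM at 10 µg/ml (log2 fold change −0.42 ± 0.09; SE; limma, adjusted p = 0.0218). SREBF1, which encodes the SREBP1 factor, averaged 8.1 ± 0.26 FPKM at 50 µg/ml and 10.1 ± 0.49 FPKM at 10 µg/ml (SD, n = 3 each), and also fell (log2 fold change −0.30; limma, adjusted p = 0.0214). Of 17 tested genes of fatty acid synthesis, SREBF1 and SCD fell (11.8%) and ME1, counted above, rose (5.88%). On that list 6 genes had a positive and 11 a negative fold change. SREBF1 and SCD are also LXR targets. Of 15 tested genes on the LXR list SREBF1, SCD and ABCA7 fell (20%) and 0 rose, and 9 had a positive fold change. ABCA7, a lipid transporter, had 1.34, 1.49 and 1.54 FPKM at 50 µg/ml, against 2.1, 2.18 and 2.08 FPKM at 10 µg/ml (log2 fold change −0.42; limma, adjusted p = 0.0142). The calls of SCD, SREBF1 and ABCA7 also depended on single libraries. Without 10 µg/ml replicate 1, 10 µg/ml replicate 2 or 50 µg/ml replicate 1 all 3 ended, and without 50 µg/ml replicate 3 those of SCD and SREBF1 did (limma, adjusted p up to 0.12 for SCD, 0.103 for SREBF1 and 0.0791 for ABCA7).

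On the list of scavenger and lipoprotein receptors, which includes innate receptors, calls went in both directions. Of 16 tested genes, 2 rose (12.5%) and 1 fell (6.25%), where 1.44% of all genes tested rose and 1.27% fell. TLR4, an innate receptor, measured 1.17, 1.13 and 1.19 FPKM at 50 µg/ml, against 0.684, 0.78 and 0.876 FPKM at 10 µg/ml (log2 fold change 0.38 ± 0.07; SE; limma, adjusted p = 0.00949). LRP8, a lipoprotein receptor, averaged 4.18 ± 0.33 FPKM at 50 µg/ml and 3.35 ± 0.13 FPKM at 10 µg/ml (SD, n = 3 each; log2 fold change 0.28; limma, adjusted p = 0.0307). CD14, the co-receptor of TLR4, measured 0.574, 0.444 and 0.576 FPKM at 50 µg/ml, against 1.45, 0.848 and 0.867 FPKM at 10 µg/ml, on 18 to 50 reads in a library. The drop was widest against 10 µg/ml replicate 1 (log2 fold change −0.58 ± 0.14; SE; limma, adjusted p = 0.0401), and without that library the call ended with an adjusted p of 0.193 (limma). It was kept in 1 of the 6 fits that left out a library, the one without 10 µg/ml replicate 3. LRP8 lost its call in 4 of these fits and TLR4 in 2 (limma, adjusted p up to 0.139 and 0.063). Because whole cultures were sequenced, fewer cells that express a gene and less RNA of it per cell cannot be told apart. OLR1, the lectin-like oxLDL receptor, measured 1.37, 1.38 and 0.888 FPKM at 50 µg/ml, against 3.21, 2.17 and 1.47 FPKM at 10 µg/ml. The groups did not overlap, but the spread at 10 µg/ml was wide and the log2 fold change of −0.67 ± 0.19 (SE) had an adjusted p of 0.0781 (limma). CD36 is not among the listed genes.

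Iron genes and amino acid stress genes rose in part. Of 30 tested genes of ferroptosis and iron, 6 rose (20%) and 0 fell, and HMOX1 and SLC7A11 are 2 of them. Over all genes tested, 1.44% rose and 1.27% fell. HMOX1, SLC7A11 and FTL are counted on the NRF2 list as well. TFRC, the transferrin receptor, measured 76.4, 77.4 and 77.8 FPKM at 50 µg/ml, against 56.7, 58.5 and 60.8 FPKM at 10 µg/ml (log2 fold change 0.39 ± 0.06; SE; limma, adjusted p = 0.00064). FTL, the ferritin light chain, was at 3112, 3050 and 2780 FPKM at 50 µg/ml, against 2238, 2107 and 2015 FPKM at 10 µg/ml (log2 fold change 0.49 ± 0.05; SE; limma, adjusted p = 3.02e-05). FTL has many processed copies in the genome that can share its reads. AIFM2, a lipid-radical suppressor also called FSP1, measured 4.68, 4.08 and 4.04 FPKM at 50 µg/ml, against 3.11, 3.15 and 2.86 FPKM at 10 µg/ml, and rose by 0.43 on the log2 scale. The doses did not overlap in any of these 3 genes, and all 3 were called in each fit that left out a library. Of 33 tested targets of ATF4, the factor of the integrated stress response, 5 rose (15.2%, where 1.44% of all genes tested did) and 0 fell. Beside SLC7A11 these were its partner chain SLC3A2 at 104.3 ± 4.2 FPKM at 50 µg/ml and 86.0 ± 5.6 FPKM at 10 µg/ml, the phosphatase subunit PPP1R15A at 57.0 ± 2.8 FPKM at 50 µg/ml and 45.2 ± 1.1 FPKM at 10 µg/ml, CEBPB at 37.0 ± 1.5 FPKM at 50 µg/ml and 28.3 ± 2.0 FPKM at 10 µg/ml, and STC2 at 108.1 ± 1.6 FPKM at 50 µg/ml and 95.9 ± 4.8 FPKM at 10 µg/ml (SD, n = 3 each). STC2 moved least (log2 fold change 0.17) and lost its call in 5 of the 6 fits that left out a library (limma, adjusted p up to 0.135, without 10 µg/ml replicate 2). The other 4 kept theirs in all 6.

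Protein turnover genes moved by small amounts. Of 32 tested proteasome genes 3 rose (9.38%), namely PSMD3, PSMD11 and PSMD14, all subunits of the regulatory cap, and 30 had a positive fold change, with a median of 0.09, where 5382 of all 11840 genes tested had a positive one. PSMD3 measured 139.3, 140.3 and 141.6 FPKM at 50 µg/ml, against 126, 126.9 and 128 FPKM at 10 µg/ml (log2 fold change 0.15; limma, adjusted p = 0.0168). The spread within each dose was small beside the gap between them. Without 10 µg/ml replicate 3, 12 proteasome genes rose, and without 10 µg/ml replicate 2, 0 did. PSMD3, PSMD11 and PSMD14 lost their calls in 4, 3 and 5 of the 6 fits that left out a library (limma, adjusted p up to 0.0791, 0.0753 and 0.156). Of 26 listed heat shock proteins and chaperones that were tested, FKBP4 was the 1 called (3.85%, where 1.44% of all genes tested rose), and 24 had a positive fold change. FKBP4, a co-chaperone of HSP90, had a log2 fold change of 0.15 (limma, adjusted p = 0.0138, and 0.0873 without 10 µg/ml replicate 2). HSPA6, an inducible heat shock protein outside that list and named after its values were seen, also rose. It had 0.62, 0.534 and 0.782 FPKM at 50 µg/ml, against 0.163, 0.182 and 0.229 FPKM at 10 µg/ml (log2 fold change 0.72; limma, adjusted p = 0.000374). HSPA6 passed the filter through the 50 µg/ml libraries alone, and it has a near-identical copy that can share its reads. Of 48 lysosome and autophagy genes, 4 rose (8.33%). CTSL, a lysosomal protease, measured 47.5, 43.3 and 46.5 FPKM at 50 µg/ml, against 36.2, 36.9 and 37.6 FPKM at 10 µg/ml (log2 fold change 0.31 ± 0.04; SE; limma, adjusted p = 0.000376). GLA, the lysosomal α-galactosidase, averaged 28.9 ± 1.1 FPKM at 50 µg/ml and 21.7 ± 0.88 FPKM at 10 µg/ml (SD, n = 3 each), a log2 fold change of 0.41. The proton pump subunit ATP6V0B and the autophagosome protein MAP1LC3B rose by 0.24 and 0.17, and MAP1LC3B was not called without 10 µg/ml replicate 1, 10 µg/ml replicate 2 or 50 µg/ml replicate 2 (limma, adjusted p up to 0.085). In the unfolded protein response 0 of 24 tested genes were called by limma and 0 by limma-voom, and 2 had an unadjusted p under 0.05. DNAJB11 and DNAJB9, the 2 members with the smallest p, had log2 fold changes of 0.12 and 0.16.

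Genes induced by growth factor signalling through ERK, and those that restrain it, rose in part. Of 32 tested immediate early and ERK feedback genes, 8 rose (25%) and 0 fell, with a median log2 fold change of 0.14. Over all genes tested, 1.44% rose and 1.27% fell, and the median was −0.01. DUSP5, a nuclear phosphatase that inactivates ERK, measured 17.4, 17.3 and 18.7 FPKM at 50 µg/ml, against 12.2, 10.8 and 11.4 FPKM at 10 µg/ml (log2 fold change 0.61 ± 0.05; SE; limma, adjusted p = 2.35e-06). DUSP4, a related phosphatase, measured 6.81, 7 and 7.51 FPKM at 50 µg/ml, against 4.35, 4.73 and 5.62 FPKM at 10 µg/ml (log2 fold change 0.50 ± 0.07; SE; limma, adjusted p = 0.00091). SPRY4, a Sprouty inhibitor of the receptor pathway, averaged 2.19 ± 0.31 FPKM at 50 µg/ml and 1.44 ± 0.12 FPKM at 10 µg/ml (SD, n = 3 each), a log2 fold change of 0.47. The remaining rises on the list were the phosphatase DUSP6 and the transcription factors ETV4, ETV5, FOSL1 and KLF2, at log2 fold changes of 0.35, 0.39, 0.38, 0.26 and 0.33. In DUSP4, ETV4, ETV5, DUSP6 and KLF2 replicate 3 was the highest of the 10 µg/ml libraries. Without 10 µg/ml replicate 2 the list had 3 rises, DUSP4, DUSP5 and SPRY4, and these 3 were called in every fit that left out a library. DUSP6 and KLF2 lost their calls in 5 of these 6 fits, ETV4 and ETV5 in 4 and FOSL1 in 2 (limma, adjusted p up to 0.188, 0.215, 0.161, 0.0864 and 0.061). EGR1, an immediate early factor, had 5.5, 5.26 and 3.94 FPKM at 50 µg/ml and 9.35, 5.7 and 3.99 FPKM at 10 µg/ml, groups that overlapped (log2 fold change −0.28 ± 0.21; SE; limma, adjusted p = 0.552).

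Of 32 tested targets of YAP and SRF, 3 rose (9.38%) and 1 fell (3.12%), and the list's median was −0.06. Of all genes tested, 1.44% rose and 1.27% fell. CCN2, a matricellular protein, measured 267.3, 275.7 and 276.3 FPKM at 50 µg/ml, against 214.2, 197.7 and 192 FPKM at 10 µg/ml (log2 fold change 0.44 ± 0.04; SE; limma, adjusted p = 4.68e-06). ANKRD1 measured 168.7, 172.8 and 172.2 FPKM at 50 µg/ml, against 139.3, 123.3 and 128 FPKM at 10 µg/ml (log2 fold change 0.40 ± 0.04; SE; limma, adjusted p = 9.22e-06). In both genes the 50 µg/ml libraries were close together and above every 10 µg/ml library. NT5E, the ectoenzyme CD73, rose by 0.37 and AJUBA, a LIM protein, fell by 0.31 on the log2 scale. The call of AJUBA ended in 3 of the 6 fits that left out a library (limma, adjusted p up to 0.0827). IL11, a cytokine of the gp130 family, was the 1 gene called among 23 tested genes of the NF-kB pathway and its cytokines (4.35%). It measured 50.9, 49.4 and 51.3 FPKM at 50 µg/ml, against 34.8, 33.8 and 33 FPKM at 10 µg/ml (log2 fold change 0.57 ± 0.03; SE; limma, adjusted p = 6.34e-09). The doses were 1.49-fold apart.

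**Figure D3:**
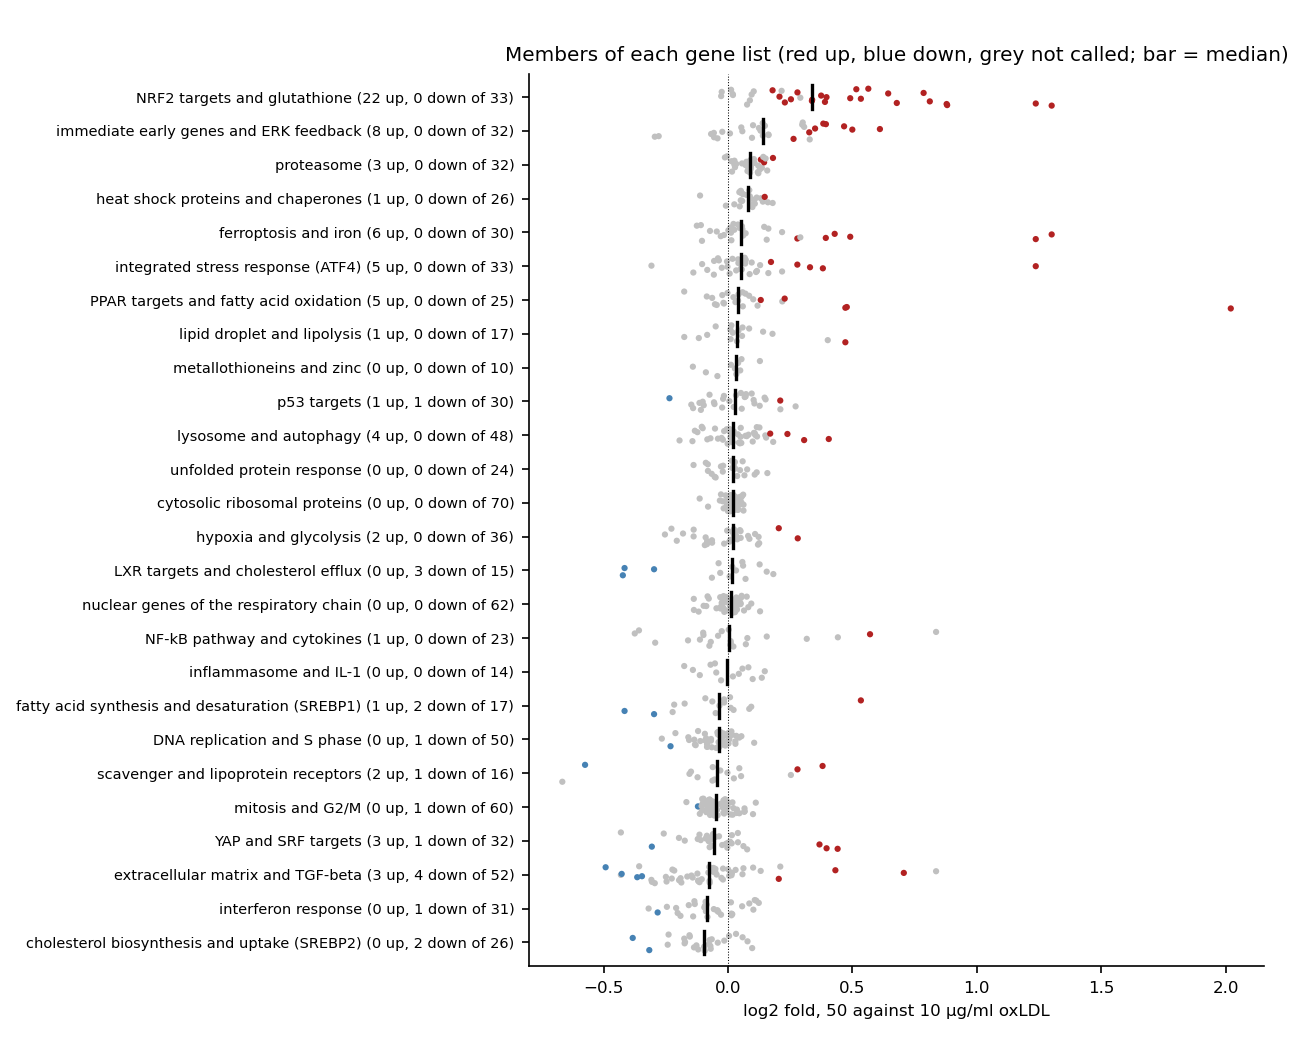
Log2 fold change at 50 against 10 µg/ml (horizontal axis) of every tested member of 26 gene lists (rows, ordered by median), with called rises in red, called falls in blue, other members in grey and the median as a bar. The NRF2 list has the highest median (0.34) and the cholesterol list the lowest (−0.09).

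Matrix genes were divided. Of 52 tested genes of extracellular matrix and TGF-beta signalling, 3 rose (5.77%) and 4 fell (7.69%), 38 had a negative fold change and the median was −0.08. Among all 11840 genes tested, 1.44% rose, 1.27% fell, 6458 had a negative fold change and the median was −0.01. TINAGL1, a basement membrane glycoprotein, measured 21.2, 21.1 and 21.1 FPKM at 50 µg/ml, against 31.5, 30.1 and 28.3 FPKM at 10 µg/ml (log2 fold change −0.49 ± 0.05; SE; limma, adjusted p = 2.51e-05). SMAD3, the TGF-beta signal transducer, measured 6.46, 6.85 and 6.37 FPKM at 50 µg/ml, against 10.2, 9.36 and 7.59 FPKM at 10 µg/ml (log2 fold change −0.43 ± 0.08; SE; limma, adjusted p = 0.00981). Thrombospondin THBS2 and the proteoglycan VCAN fell by 0.36 and 0.35. In all 4 the 50 µg/ml libraries were close to one another, and replicate 3 was the lowest at 10 µg/ml. SERPINE2, a protease inhibitor, measured 54.7, 52.9 and 65.5 FPKM at 50 µg/ml, against 27.1, 32.5 and 48.6 FPKM at 10 µg/ml (log2 fold change 0.71 ± 0.16; SE; limma, adjusted p = 0.0253). The groups were separate but the 10 µg/ml libraries spanned a wide range, and the call ended in 4 of the 6 fits that left out a library (limma, adjusted p up to 0.131). The receptor of urokinase, PLAUR, and the crosslinking enzyme LOX rose by 0.43 and 0.20. VCAN lost its call in 5 of these fits, LOX in 4, PLAUR in 3 and SMAD3 in 2 (limma, adjusted p up to 0.123, 0.201, 0.125 and 0.0653), and TINAGL1 and THBS2 kept theirs in all. The count of falls on this list was 19 without 10 µg/ml replicate 3 and 2 without 10 µg/ml replicate 2. COL1A1 had 389.9, 407.2 and 391.5 FPKM at 50 µg/ml and 550.7, 504.5 and 413.1 FPKM at 10 µg/ml, and was not called (log2 fold change −0.29; limma, adjusted p = 0.0648). Of 17 pericyte and fibroblast markers, some of them matrix genes, 12 are listed and 0 of the 9 tested were called by limma, with 3 at an unadjusted p under 0.05 and 2 called by limma-voom. They summed to 1419 to 1442 FPKM at 50 µg/ml and to 1462 to 1600 FPKM at 10 µg/ml, PDGFRA, COL3A1, DCN, LUM and ANPEP are not among the listed genes, and the part of this difference in the matrix result was not tested.

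The steepest falls were a mixed set. MIR503HG, a noncoding RNA that hosts microRNAs on chromosome X at 134543377 to 134546630, measured 9.02, 9.59 and 11.7 FPKM at 50 µg/ml, against 17.6, 15.3 and 17.2 FPKM at 10 µg/ml (log2 fold change −0.71 ± 0.08; SE; limma, adjusted p = 5.34e-05). MEGF6, a secreted multiple-EGF protein, measured 1.26, 1.34 and 1.45 FPKM at 50 µg/ml, against 2.98, 2.86 and 1.87 FPKM at 10 µg/ml (log2 fold change −0.71 ± 0.12; SE; limma, adjusted p = 0.00316). IZUMO4 measured 1.44, 1.41 and 1.35 FPKM at 50 µg/ml, against 2.94, 3.19 and 2.37 FPKM at 10 µg/ml (log2 fold change −0.81; limma, adjusted p = 0.00097). In all 3 the doses were separate, and in MEGF6 and IZUMO4 replicate 3 was again the lowest at 10 µg/ml. PGGHG, a glucosidase of the hydroxylysine glycans of collagen, fell by 0.60, the collagen VII chain COL7A1 by 0.65, the semaphorin SEMA3B by 0.57 and WDR90 by 0.54. COL7A1, SEMA3B and WDR90 each lost the call in 4 of the 6 fits that left out a library (limma, adjusted p up to 0.119, 0.096 and 0.0794). HOXB-AS1 fell by 0.72, on 15 to 38 reads in a library, and as an antisense gene its reads cannot be told apart from those of its partner strand. SNORD30, SNORD79 and SNORD110, small nucleolar RNAs that lie inside SNHG1, GAS5 and NOP56, were listed with log2 fold changes of −0.90, −0.72 and −0.67, on 14 to 50 reads in a library. Reads of their host transcripts may be counted in them, so these 3 values are uncertain, and the call of each ended without 10 µg/ml replicate 2 (limma, adjusted p = 0.0757, 0.0757 and 0.0621). Steep rises outside the lists were KCNJ2, an inward-rectifier potassium channel, at 1.3 ± 0.36 FPKM at 50 µg/ml and 0.593 ± 0.213 FPKM at 10 µg/ml (SD, n = 3 each), and SMOC1, a matricellular calcium-binding protein, at 3.13 ± 0.37 FPKM at 50 µg/ml and 1.8 ± 0.08 FPKM at 10 µg/ml. SMOC1 kept its call in every fit that left out a library and KCNJ2 lost it in 3 (limma, adjusted p up to 0.0906).

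Cell cycle genes moved little. Of 50 tested genes of DNA replication, MCM7 fell (2%) and 0 rose, and 38 had a negative fold change. Of all 11840 genes tested, 1.27% fell, 1.44% rose and 6458 had a negative fold change. MCM7, a subunit of the replicative helicase, measured 143.8, 136.7 and 134.6 FPKM at 50 µg/ml, against 165, 156.3 and 166.2 FPKM at 10 µg/ml (log2 fold change −0.23 ± 0.03; SE; limma, adjusted p = 0.000603). Of 60 tested mitotic genes, the kinesin KIF20A alone was called (1.67%) and fell by 0.12, and 47 had a negative fold change. The call of KIF20A ended in 11 of 20 alternatives, among them each of the 6 that left out a library. Among 30 p53 targets the kinase PLK2 fell by 0.24 (3.33% of the list) and the nuclease AEN rose by 0.21 (3.33%). PLK2 kept its call in all 6 of these fits and AEN lost it in 4, and CDKN1A, the p21 inhibitor, had a log2 fold change of 0.21 with an adjusted p of 0.0568 (limma).

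The series concerns CD36, NLRP3 and IL-1β, and of these IL1B alone could be tested here. Of 14 tested inflammasome and IL-1 genes, 0 were called by limma and 0 by limma-voom, 1 had an unadjusted p under 0.05, and the median log2 fold change was −0.004. IL1B measured 1.88, 1.92 and 1.79 FPKM at 50 µg/ml, against 1.85, 2.04 and 1.94 FPKM at 10 µg/ml (log2 fold change −0.05 ± 0.11; SE; limma, adjusted p = 0.871). CASP1 measured 0.525, 0.557 and 0.668 FPKM at 50 µg/ml, against 0.472, 0.529 and 0.529 FPKM at 10 µg/ml (log2 fold change 0.10 ± 0.08; SE; limma, adjusted p = 0.583). Both genes overlapped between the doses. IL18 measured 16.2, 16.2 and 15.8 FPKM at 50 µg/ml, against 15.5, 14.1 and 13.9 FPKM at 10 µg/ml, separate groups with a log2 fold change of 0.15 ± 0.09 (SE; limma, adjusted p = 0.455). NLRP3 was below the filter, at 0.374, 0.31 and 0.414 FPKM at 50 µg/ml and 0.231, 0.227 and 0.272 FPKM at 10 µg/ml, on 21 to 61 reads in a library, and its groups did not overlap. A change in NLRP3 was not tested, and 9.59% of all genes tested were likewise wholly higher at 50 µg/ml. Among 31 interferon response genes, the RNA sensor IFIH1 alone was called and fell by 0.28. It made 3.23% of that list, where 1.27% of all genes tested fell. Among 36 genes of hypoxia and glycolysis the glucose carrier SLC2A3 rose by 0.28, together with LOX. They made 5.56% of that list, where 1.44% of all genes tested rose. IFIH1 and SLC2A3 each lost the call in 4 of the 6 fits that left out a library (limma, adjusted p up to 0.158 and 0.169). None of 70 cytosolic ribosomal protein genes, 62 nuclear genes of the respiratory chain or 10 metallothionein and zinc genes was called by limma or limma-voom, 0, 5 and 2 of them had an unadjusted p under 0.05, and their median log2 fold changes were 0.02, 0.01 and 0.03.

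The neighbouring dose steps were set beside this one. At 10 against 2.5 µg/ml 0 genes were called (limma), with 681 at an unadjusted p under 0.05 and 1 called by limma-voom, and at 100 against 50 µg/ml 36 were called, which is 0.304% of genes tested. The 3 steps share libraries, so the difference between steps was tested directly. This step is the largest of the 3 as a fold of dose, and neither the counts nor the log2 fold changes were scaled to the size of a step. A difference between steps is therefore not a difference per unit of dose. For 15 genes (0.127% of genes tested) the change at 50 against 10 µg/ml differed from that at 10 against 2.5 µg/ml, and for 14 of them it was more positive. The largest differences were in ANGPTL4, whose log2 fold change was 2.02 in this step and 0.03 in the earlier one, and in HMOX1, with 1.30 in this step and −0.02 in the earlier one (limma, adjusted p of the differences 0.00363 and 4.96e-05). SLC7A11, GCLM, NQO1 and TXNRD1 differed too, on top of earlier log2 fold changes of 0.36, 0.20, 0.23 and 0.16. The others were IL11, DUSP5, CCN2, PLIN2, ANKRD1, UGDH, PPIF and TRIM16, and MIR503HG was the 1 gene with a more negative change in this step (difference −0.80; limma, adjusted p = 0.0219). PPIF, the mitochondrial cyclophilin, measured 219.4, 214.8 and 217.1 FPKM at 50 µg/ml, against 173, 165.8 and 170.3 FPKM at 10 µg/ml.

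Against the later step, 100 against 50 µg/ml, 2 genes differed (0.0169% of genes tested). The later step is smaller as a fold of dose, though larger in µg/ml, and this was not allowed for. NQO1 gained 0.88 in this step and 0.36 in the later one (difference 0.53; limma, adjusted p = 0.0281). PGGHG lost 0.60 in this step and had a log2 fold change of 0.30 in the later one (difference −0.90; limma, adjusted p = 0.0282). PGGHG measured 2.09, 2.29 and 2.49 FPKM at 50 µg/ml, against 3.69, 3.9 and 3.59 FPKM at 10 µg/ml, with separate groups. Both calls depend on the setting, and 0 to 6 genes differed over the alternatives.

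The called genes were then read at 100 against 0 µg/ml. Those 6 libraries give no mean of the step, but they enter the spread estimated in the fit, so its calls are not independent of them. In 100 against 0 µg/ml 1855 genes were called, 15.7% of genes tested. Of the 320 genes called in the step, 264 were called there in the same direction, which is 82.5% of the step's calls and 14.2% of the calls at 100 against 0 µg/ml. By direction, 153 of 170 rises (90%) and 111 of 150 falls (74%) were called there, where 8.07% of genes tested rose and 7.59% fell, and 319 of the 320 had the same sign, against 69.6% of all genes tested. The difference between rises and falls was not tested, and single libraries moved it. Without 10 µg/ml replicate 3 it was 272 of 340 rises and 296 of 392 falls, and without 50 µg/ml replicate 3 it was 80 of 82 rises and 49 of 104 falls. For genes not called at 100 against 0 µg/ml, being picked that way favours a smaller change at 100 than at 50 µg/ml. Their medians only describe the sets. The 39 falls that were not called at 100 against 0 µg/ml had a median log2 fold change of −0.31 in the step, −0.14 at 100 against 0 µg/ml and 0.15 at 100 against 50 µg/ml. Among them were PTOV1-AS2, APBB3, KIFC2, NICN1 and HDAC10, chosen after their values were seen. KIFC2 and HDAC10 lost their call of the step in 5 of the 6 fits that left out a library (limma, adjusted p up to 0.181 and 0.118), PTOV1-AS2 in 2, and APBB3 and NICN1 in 1. The 17 rises not called there had a median of 0.20 in the step, 0.09 at 100 against 0 µg/ml and −0.08 at 10 against 2.5 µg/ml, and KLF2 was one, at 7.98 ± 0.29 FPKM at 0 µg/ml, 6.36 ± 0.87 FPKM at 10 µg/ml and 8.07 ± 0.50 FPKM at 50 µg/ml (SD, n = 3 each). The selection of these 17 likewise favours genes with low values at 10 µg/ml, KLF2 included. Their negative median at 10 against 2.5 µg/ml is therefore no separate result.

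**Figure D4:**
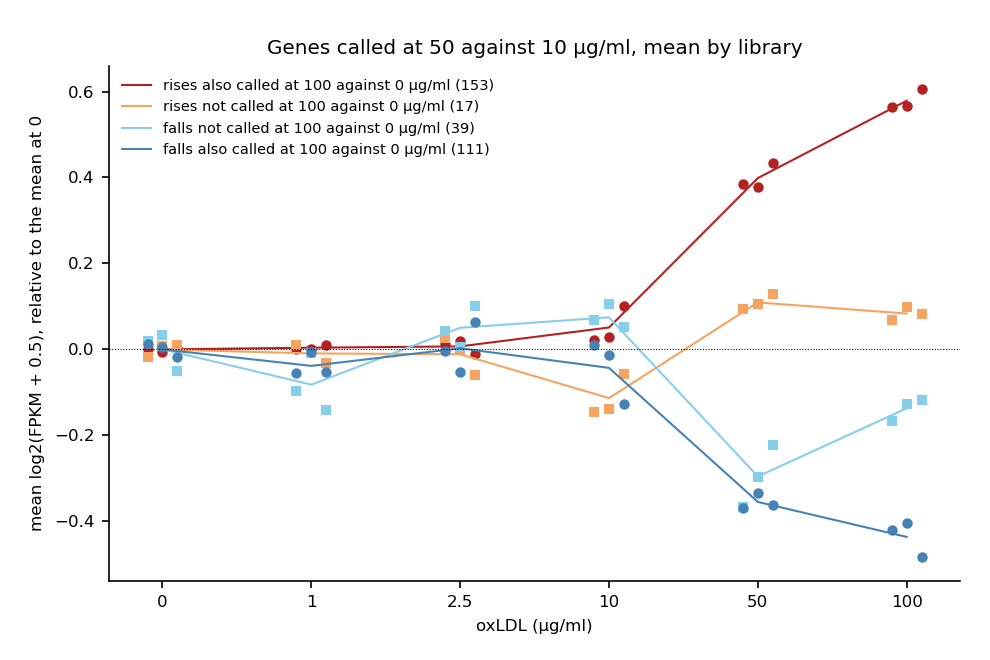
Mean log2(FPKM + 0.5) of the genes called in the step, relative to their mean at 0 µg/ml, in each of the 18 libraries (points) with the mean per dose (lines), split by direction and by the call at 100 against 0 µg/ml. The 39 falls not called there reach −0.37 to −0.22 at 50 µg/ml and −0.17 to −0.12 at 100 µg/ml, and of the 10 µg/ml libraries replicate 3 lies nearest to 50 µg/ml in each of the 4 sets. The split by calls itself favours smaller changes at 100 µg/ml in the sets not called there.

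Transcripts of the falls were rich in G and C. Median transcript GC was 57.9% for the falls, 50.4% for the rises and 48% for all genes tested, over 144 falls, 163 rises and 10768 genes with a matched transcript. The highest of 4 equal groups of genes by GC (56.4% to 80.8%) held 81 of the 144 falls and 34 of the 163 rises. Over all genes of that group the median log2 fold change of the step was −0.03. The libraries differ in this too. The median of high-GC genes minus that of low-GC genes was −0.020, −0.046 and −0.038 on the log2 scale in the 50 µg/ml libraries. In those at 10 µg/ml it was 0.016, −0.005 and −0.040, so 10 µg/ml replicate 3 lay within the range at 50 µg/ml. With values centred along GC in each library, a setting chosen after seeing the data, 328 genes were called (194 rises and 134 falls) and 276 of them were among the 320. The part of GC in single falls was not tested further.

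The number of calls depended on single libraries. Over the 170 rises, mean log2 values relative to 0 µg/ml were 0.355, 0.351 and 0.404 in the 50 µg/ml libraries, against 0.006, 0.012 and 0.086 in those at 10 µg/ml. Over the 150 falls they were −0.369, −0.325 and −0.325 at 50 µg/ml, against 0.026, 0.017 and −0.080 at 10 µg/ml. In both sets 10 µg/ml replicate 3 lay on the side of 50 µg/ml. Without that library 732 genes were called (340 rises and 392 falls), and without 10 µg/ml replicate 2, 80 were (60 rises and 20 falls). Leaving out 10 µg/ml replicate 1 gave 113 calls, and leaving out 50 µg/ml replicate 1, 2 or 3 gave 151, 164 and 186. A core of 74 genes (56 rises and 18 falls) was called in each of these 6 fits as well, and of the 71 genes named here by rule and called, 37 are in it. The core holds ANGPTL4, HMOX1, SLC7A11, NQO1, GCLM, TXNRD1, PLIN2, CPT1A, FTL, TFRC, IL11, DUSP5, CCN2 and ANKRD1 among the rises, and TINAGL1, MIR503HG, MCM7, PLK2, MEGF6, IZUMO4, THBS2 and PGGHG among the falls. Of these genes, MEGF6 and THBS2 lost the call when the 6 libraries were fitted alone (limma, adjusted p = 0.0678 and 0.0693).

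**Figure D5:**
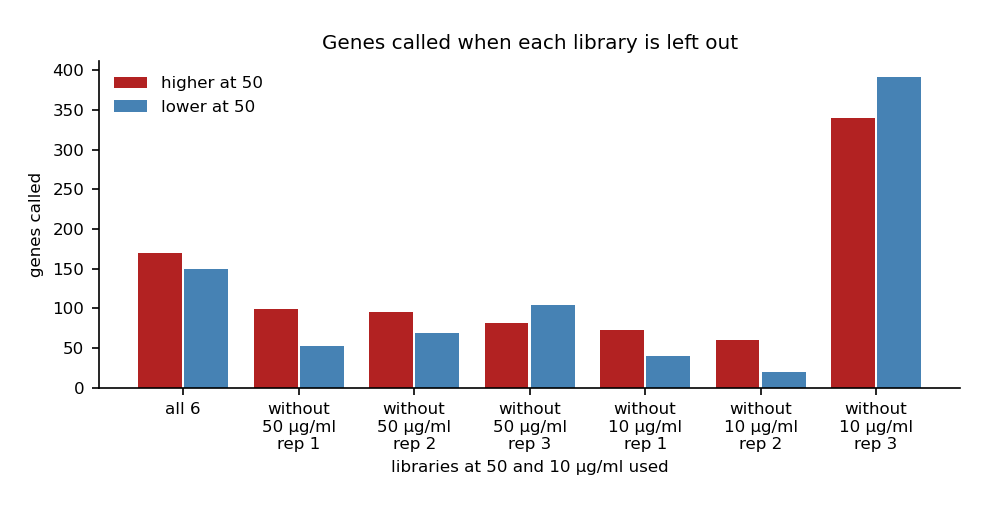
Number of genes called at 50 against 10 µg/ml (rises in red, falls in blue) with all 6 libraries and with each left out. Counts run from 80 without 10 µg/ml replicate 2 to 732 without 10 µg/ml replicate 3, against 320 with all.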

How the data were processed

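FPKM values for 13992 gene symbols in 18 libraries were used as deposited by the authors. HISAT2 2.0.5, featureCounts, DESeq2 and the build hg38 appear in the submitters' processing notes, with no role given. The annotation and the strand setting are not given in the sources used here, and the kit named in the labels' protocols does not mark strand, so genes that overlap on opposite strands are uncertain. FPKM steps gave whole reads (within 0.05) for all 13992 genes, and depths come from these.

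Genes with 0.5 FPKM in 3 of the 6 libraries at 50 and 10 µg/ml were kept, and log2(FPKM + 0.5) of all 18 libraries was fitted with limma 3.58.1 in R 4.3.3. The model had a mean for each dose and a variance trend, which left 12 residual degrees of freedom. Tests were two-sided, with Benjamini-Hochberg adjustment over the 11840 genes of a comparison. A total of 20 alternatives were run.

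Genes and lists were chosen with earlier results of these data known. Named genes are the 12 largest called rises and falls with a mean of at least 1 FPKM and separate groups, up to 4 called members of each list (or the 2 with the smallest p), the strongest differences between steps, and genes fixed by name. Remaining members of lists, and others where said, were named after their values were seen. Coordinates and promoters are from RefSeq GRCh38.p14. Some genes of the lists are counted but not reported here by name.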

Additional observations from a re-analysis of the deposited data

How the results depend on the processing

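Called genes at 50 against 10 µg/ml numbered 89 (58 rises, 31 falls) when the 6 libraries were fitted alone, 494 by limma-voom on the recovered reads, and 80 to 732 when 1 library was left out. The other settings stayed within 1.5 times the 320. Of these 320, 264 were also called at 100 against 0 µg/ml, and that number was 82 with the compared doses alone and 78 to 568 without 1 library. The 15 genes that differed from the earlier step were 5 with the compared doses alone and 6 to 19 without 1 library. The 2 that differed from the later step were 1 with median-ratio scaling, 6 with quantile scaling, 1 with the compared doses alone, 0 with no variance trend, 6 with limma-voom, 1 with thinned reads and 0 to 2 without 1 library. Same-numbered libraries at 50 and 10 µg/ml had correlated deviations of 0.046, 0.008 and 0.104, so the numbers are not taken to pair them. A fit with the replicate block called 337 genes, 290 of them among the 320, and 4 that differed from the later step. Of 96 named genes tested, 71 were called. Of these, 32 kept the call in all 20 alternatives, 26 lost it in 1 to 5 and 13 in more, and 0 reversed. Genes near the filter rest on few reads.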

Other observations

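The following called genes lie outside the naming rule, and they were picked with their values known. PRNP, the prion protein gene, measured 95.2, 93.1 and 102.0 FPKM at 50 µg/ml, against 67.1, 70.5 and 82.2 FPKM at 10 µg/ml, with a log2 fold change of 0.40 and separate groups. VEGFC, a lymphatic growth factor, measured 26.6, 28.8 and 26.4 FPKM at 50 µg/ml, against 19.9, 19.3 and 22.3 FPKM at 10 µg/ml (log2 fold change 0.41). The ubiquitin hydrolase UCHL1 averaged 465.2 ± 3.37 FPKM at 50 µg/ml and 390.5 ± 14.1 FPKM at 10 µg/ml, and CD274, the ligand of the T cell receptor PD-1, averaged 10.4 ± 0.19 FPKM at 50 µg/ml and 8.46 ± 0.28 FPKM at 10 µg/ml (SD, n = 3 each). Both rose, by 0.25 and 0.28 on the log2 scale. Among falls, the surface glycoprotein CD24 averaged 3.43 ± 0.10 FPKM at 50 µg/ml and 4.91 ± 0.32 FPKM at 10 µg/ml, ADAMTSL4 3.24 ± 0.16 FPKM at 50 µg/ml and 4.82 ± 0.45 FPKM at 10 µg/ml, and the tensin TNS2 2.17 ± 0.05 FPKM at 50 µg/ml and 3.05 ± 0.05 FPKM at 10 µg/ml (SD, n = 3 each). Their log2 fold changes were −0.46, −0.51 and −0.41. These 7 genes were called in every fit that left out a library (limma). MDGA1, a membrane adhesion protein, had 4.23, 4.72 and 3.78 FPKM at 50 µg/ml, against 10.3, 8.61 and 4.72 FPKM at 10 µg/ml, and its groups met at 10 µg/ml replicate 3 (log2 fold change −0.76; limma, adjusted p = 0.0488). Its call ended in 5 of the 6 fits that left out a library (limma, adjusted p up to 0.233).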
